A study of Mus musculus with 4 samples.

Results

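Glutamate carries most fast excitatory transmission in the central nervous system. It is loaded into synaptic vesicles by vesicular transporters, acts on ion-channel receptors (AMPA, kainate and NMDA receptors) and on G protein-coupled metabotropic receptors, and is cleared from the extracellular space mainly by transporters of astrocytes. The spinal cord holds these synapses in its gray matter, whereas the gut wall contains the neurons and glia of the enteric nervous system among many more epithelial and muscle cells. The 29 genes described here were chosen by name, with no expression value in the rule, from 32575 genes or unnamed identifiers on the array. They comprise 4 AMPA receptor subunits, 5 kainate receptor subunits, 7 NMDA receptor subunits, 1 delta receptor, 7 metabotropic receptors, 3 vesicular transporters and 2 plasma membrane transporters, and they were covered by 43 probes, with 1 probe for 17 genes and 2 or more for 12.

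Male mice, either IP6K2-KO or their WT littermates, gave RNA from whole spinal cord and whole duodenum, and each of 4 single-color arrays held 1 genotype and 1 organ. In the knockout, exon 6 of Ip6k2 is deleted. This exon encodes the kinase domain of an enzyme that makes inositol pyrophosphates. The animals had an age of 20 weeks. Their last food was iVid-neo, a purified chow given for 1 week in place of CE-2, and a fast of 48 h preceded tissue collection. The design asks how loss of IP6K2 alters transcripts in a nervous and an intestinal tissue. Each group had a single array, so the spread between mice is unknown and nothing was tested. The error given beside a difference is a technical SD, taken from 399 probes spotted 10 times on each array, and it covers spots within arrays and not mice.

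The arrays differed in brightness, and in the spinal cord the KO label did not go with less Ip6k2 signal. The 75th percentile of the processed signal was 905 in WT spinal cord, 971 in KO spinal cord, 68.0 in WT duodenum and 323 in KO duodenum, and 51.6% to 77.4% of the 39429 probes were well above background. The single Ip6k2 probe, whose position relative to exon 6 is not given in the sources used here, read 452 in WT and 1320 in KO spinal cord. After normalization it was higher by 1.45 on the log2 scale on the array labelled KO in the spinal cord (technical SD 0.065) and differed by −0.21 in the duodenum (0.084). Genotypes are therefore given as labelled. In these whole tissues, fewer cells of a type and less RNA per cell cannot be told apart.

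The spinal cord carried its neuronal markers, with all 9 neuron markers, all 3 measured inhibitory neuron markers and all 5 astrocyte markers well above background on both arrays. In the duodenum, all 7 enterocyte markers were well above background on both arrays. There, 5 of 6 enteric neuron markers were above background on each array, and 2 of 3 enteric glia markers on the WT array and 3 of 3 on the KO array. None of the 3 inhibitory neuron markers was above background in the duodenum, and of the 5 astrocyte markers 3 were in WT and 4 in KO, with Gfap, the defining one, above background on neither.

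Promoter sequences are shown for 4 genes because they span the patterns reported below. Slc17a6 and Gria2 were read only in the spinal cord, Slc1a3 was read in both tissues, and Grm2 departed from the remaining genes in the duodenum. The sequences are the 300-base windows around annotated transcript starts in RefSeq (GRCm38.p6), printed 5′ to 3′ on the gene's strand. Capitals mark letters that match a searched motif. Promoters were found for 20 of the 29 genes, 25 in all, and of the 2 listed for Slc17a6 1 is shown. The genes without an entry in the table were Grid1, Grin2a, Grin3a, Grm5, Gria1, Gria3, Grik1, Grm4 and Grin2b.
Slc17a6, chr7:51621580-51621879, plus strand: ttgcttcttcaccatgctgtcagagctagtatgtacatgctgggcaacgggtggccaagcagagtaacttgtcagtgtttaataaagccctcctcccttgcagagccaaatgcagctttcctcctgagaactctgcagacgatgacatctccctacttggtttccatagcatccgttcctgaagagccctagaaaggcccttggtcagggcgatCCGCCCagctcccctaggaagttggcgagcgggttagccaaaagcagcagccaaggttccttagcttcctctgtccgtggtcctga
Gria2, chr3:80802786-80803085, minus strand: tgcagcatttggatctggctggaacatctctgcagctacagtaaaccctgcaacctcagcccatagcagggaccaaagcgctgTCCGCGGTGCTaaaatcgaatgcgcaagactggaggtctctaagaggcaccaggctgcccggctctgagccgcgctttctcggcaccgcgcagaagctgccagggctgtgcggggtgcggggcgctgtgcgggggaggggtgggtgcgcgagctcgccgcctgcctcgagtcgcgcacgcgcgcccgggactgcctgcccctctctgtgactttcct
Slc1a3, chr15:8710758-8711057, minus strand: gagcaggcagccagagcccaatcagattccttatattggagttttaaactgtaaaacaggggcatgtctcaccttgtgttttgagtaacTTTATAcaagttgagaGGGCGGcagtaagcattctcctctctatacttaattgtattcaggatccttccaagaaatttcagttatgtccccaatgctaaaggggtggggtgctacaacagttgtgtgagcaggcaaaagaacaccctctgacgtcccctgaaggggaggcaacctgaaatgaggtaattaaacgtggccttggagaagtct
Grm2, chr9:106656060-106656359, minus strand: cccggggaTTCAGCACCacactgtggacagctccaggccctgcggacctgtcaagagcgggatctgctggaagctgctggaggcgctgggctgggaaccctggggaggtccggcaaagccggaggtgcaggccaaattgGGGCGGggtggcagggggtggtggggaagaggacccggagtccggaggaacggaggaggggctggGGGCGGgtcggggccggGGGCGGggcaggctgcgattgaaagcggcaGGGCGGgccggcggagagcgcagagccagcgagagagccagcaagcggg

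Both strands were searched for 4 motifs. The core of the RE1 element, which binds REST, a repressor of neuronal genes in other cell types, was found in 0.423% of all 32851 promoters and, among the 20 genes, in Gria2 alone, on the opposite strand. The left part of RE1, TTCAGCACC, was found in 0.371% of all promoters and among these genes in Grm2 alone. These letters do not overlap a full RE1 core in the Grm2 window. The GC box GGGCGG was found in 35.7% of all promoters and in 13 of the 25 promoters of these genes, which belong to 12 genes. The windows shown held 4 matches for Grm2, 1 each for Slc17a6 (on the opposite strand) and Slc1a3 and none for Gria2. The TATA box TATAAA was found in 13.6% of all promoters and in 2 of the 25, those of Slc1a3 and Grin3b. The Slc1a3 match lies on the opposite strand. The Gria2 window held 26 CpG dinucleotides and the Grm2 window 22, against 8 for Slc17a6 and 3 for Slc1a3.

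In the spinal cord, 28 of the 29 genes were well above background on both arrays, and Grm6, a metabotropic receptor best known from retinal bipolar cells, was not. Each gene is read here by 1 representing probe, the one with the highest mean. By these probes, 4 of the 29 genes were well above background in the WT duodenum and 11 in the KO duodenum. By any probe of a gene these counts were 5 and 12, with Grm5 added in WT and Grin2a in KO. For comparison, among the 24165 genes that were well above background on both spinal cord arrays, 67.1% were also above background in the WT duodenum and 83.5% in the KO duodenum. Grik4, Grik5, Grm2 and Slc1a3 were above background on all 4 arrays by their representing probes, and Grm5 by a further probe.

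**Figure D1:**
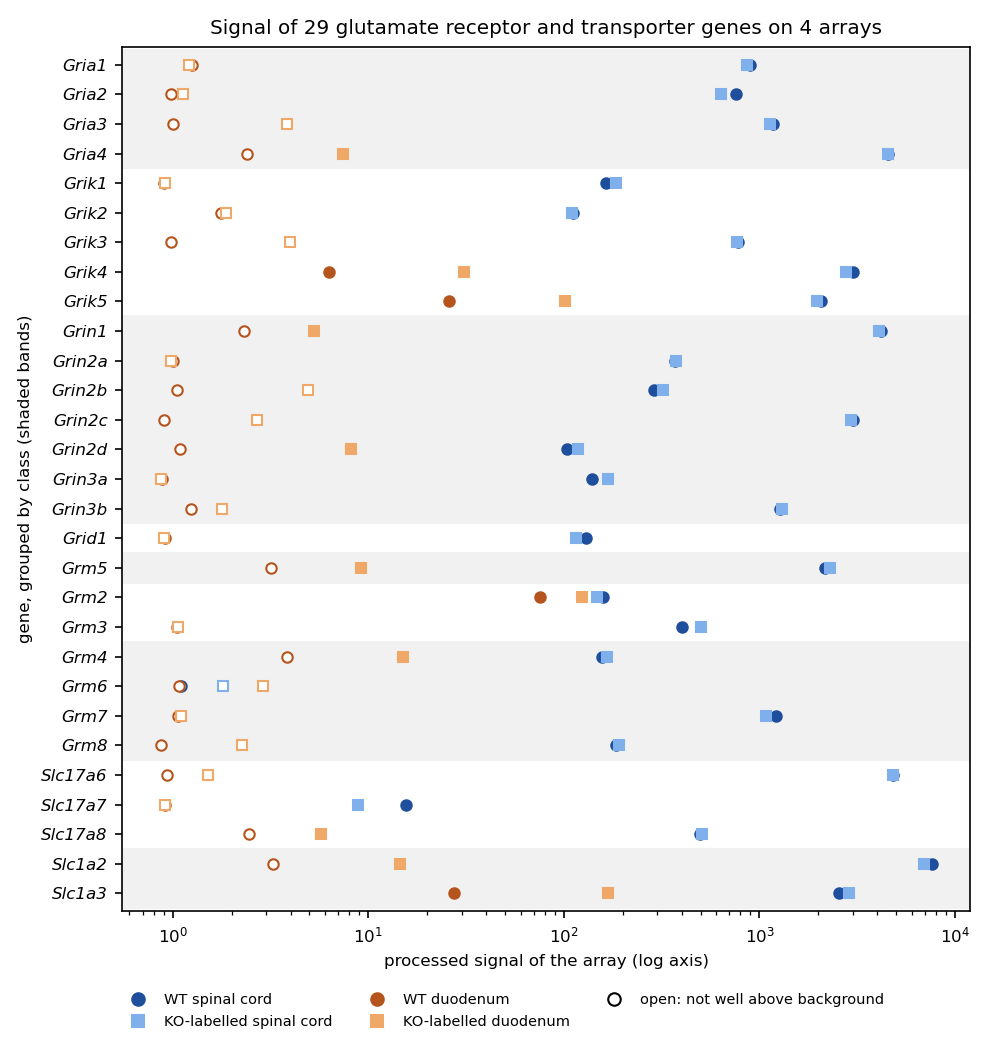
The processed signal of the probe that stands for each gene is plotted on a log axis for the 4 arrays, in arbitrary brightness units, with filled symbols for probes well above background and open symbols for the others. Of the 29 genes, 28 are filled on each spinal cord array, 4 in the WT duodenum and 11 in the KO-labelled duodenum; signals of different probes are not comparable as transcript levels.

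AMPA receptors open within milliseconds of glutamate release and are assembled from the subunits Gria1 to Gria4. The Gria4 probe read 4570 in WT and 4547 in KO spinal cord, and 2.39 in WT and 7.38 in KO duodenum (processed signal). Gria2, the subunit that makes the channel impermeable to calcium after RNA editing, gave 762, 640, 0.98 and 1.13 in the same order. Both were therefore read in the spinal cord on either array, and in the duodenum only Gria4 on the KO array was above background. Gria1 and Gria3 read between 861 and 1173 in the spinal cord and at most 3.82 in the duodenum, where neither was above background.

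Kainate receptors combine the subunits Grik1 to Grik3 with the high-affinity subunits Grik4 and Grik5. Grik4 read 3009, 2774, 6.26 and 30.8 in WT spinal cord, KO spinal cord, WT duodenum and KO duodenum. Grik5 read 2054, 1961, 25.8 and 101 in that order. Both high-affinity subunits were above background on all 4 arrays, whereas Grik1, Grik2 and Grik3 were above background in the spinal cord only, with signals of 110 to 778 there.

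NMDA receptors need glutamate together with glycine or D-serine and contain the obligatory subunit Grin1. Grin1 read 4180 in WT spinal cord, 4107 in KO spinal cord, 2.31 in WT duodenum and 5.27 in KO duodenum. Of the remaining subunits, Grin2a, Grin2b, Grin2c, Grin2d, Grin3a and Grin3b read between 104 and 2996 in the spinal cord. By their representing probes, only Grin1 and Grin2d were above background in the KO duodenum, and no subunit was in the WT duodenum. A second Grin2a probe was above background in the KO duodenum, with a signal of 5.10. Grid1, a delta receptor that links synapses rather than responding to glutamate, read 130 and 116 in WT and KO spinal cord and 0.91 and 0.90 in WT and KO duodenum.

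Metabotropic receptors fall into group I (here Grm5), which couples to phospholipase C, and groups II and III, which lower cyclic AMP. The representing Grm5 probe read 2168, 2293, 3.19 and 9.15 in WT spinal cord, KO spinal cord, WT duodenum and KO duodenum. A further Grm5 probe read 66.2, 62.9, 24.8 and 20.7 and was above background on all 4 arrays, so the probes of this gene disagree about the duodenum. In group II, Grm3 read 401, 505, 1.05 and 1.06 in that order. The second group II receptor, Grm2, read 159, 148, 75.6 and 124. Grm3 was thus read in the spinal cord only, whereas Grm2 was above background on all 4 arrays. In group III, Grm7 read 1218 and 1077 in WT and KO spinal cord and 1.07 and 1.1 in WT and KO duodenum. Grm4 and Grm8 read between 157 and 191 in the spinal cord, and of these only Grm4 was above background in a duodenum array, the KO one.

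Among the vesicular transporters, Slc17a6 (VGLUT2) marks many glutamatergic spinal neurons, Slc17a7 (VGLUT1) is used mainly by sensory and corticospinal afferents whose cell bodies lie elsewhere, and Slc17a8 (VGLUT3) occurs in smaller populations. Slc17a6 read 4827 and 4793 in WT and KO spinal cord and 0.94 and 1.51 in WT and KO duodenum. Slc17a7 read only 15.5 and 8.89 in WT and KO spinal cord and 0.91 in each duodenum. Slc17a8 read 498 and 506 in the spinal cord, and 2.46 and 5.74 in WT and KO duodenum. None of the 3 was above background in the WT duodenum, and Slc17a8 alone was in the KO duodenum. Of the astrocyte transporters that clear glutamate, Slc1a2 was above background in the KO duodenum and not in WT, as was Slc17a8, and Slc1a3 was read more widely. Slc1a2 (GLT-1) read 7588, 6964, 3.24 and 14.5 in WT spinal cord, KO spinal cord, WT duodenum and KO duodenum. Slc1a3 (GLAST) read 2557, 2880, 27.5 and 169 in that order and was above background on all 4 arrays.

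Between the spinal cord arrays, none of the 28 measured genes differed by 2-fold or more. Among the 25216 genes read on at least 1 of these arrays, 2.28% were at least 2-fold higher and 0.865% at least 2-fold lower in KO. With each array set relative to its own 75th percentile, the log2 differences of KO minus WT ran from −0.90 to 0.23 with a median of −0.11, and 22 of 28 were below 0. Over all 24165 genes measured on both arrays the median was −0.04 and 58.7% were below 0. The technical SD of the 28 differences ran from 0.056 to 0.259, and 14 of them exceeded 2 technical SDs. This count was not taken over all genes, and the technical SD covers spots only, so 14 is not a number of changed genes.

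All 4 AMPA subunits were below 0 in this comparison, with Gria2 at −0.35 (technical SD 0.065), Gria3 at −0.16, Gria1 at −0.15 and Gria4 at −0.11. A second probe of Gria2 differed by −0.10. Of the kainate subunits, Grik4 was at −0.22 and Grik5 at −0.17 (technical SD 0.058 each). The 2 probes of Grik2 went in opposite directions, with −0.11 for the probe that stands for the gene (110.7 in WT and 110.4 in KO) and 0.12 for the other (49.4 in WT and 57.7 in KO). It was the only one of 11 genes with several measured probes for which the signs differed. Within a gene these probes spread over 0.042 to 0.380, with a median of 0.152.

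The NMDA subunits were split, with Grin1 at −0.13, Grin2c at −0.12, Grin2a at −0.08 and Grin3b at −0.07, and with Grin2b at 0.05, Grin2d at 0.09 and Grin3a at 0.18. Grid1 was at −0.27 (technical SD 0.084). Among the metabotropic receptors, Grm7 was at −0.28 (0.060) and Grm2 at −0.20 (0.080), while Grm3 at 0.23 (0.064) had the highest value of the 28 genes. Grm4, Grm5 and Grm8 lay between −0.05 and −0.02. The vesicular transporters Slc17a6 and Slc17a8 were at −0.11 and −0.08. Slc17a7 had the lowest value, −0.90 (0.259), from a probe that read 15.5 in WT and 8.89 in KO. This value moved to −2.30 with normexp background correction and to −0.20 with flagged backgrounds replaced, where Gria2 (−0.36) was lower. Slc1a2 was at −0.23 (0.056), with −0.21 and −0.17 for its other 2 probes, and Slc1a3 was at 0.07 (0.060).

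**Figure D2:**
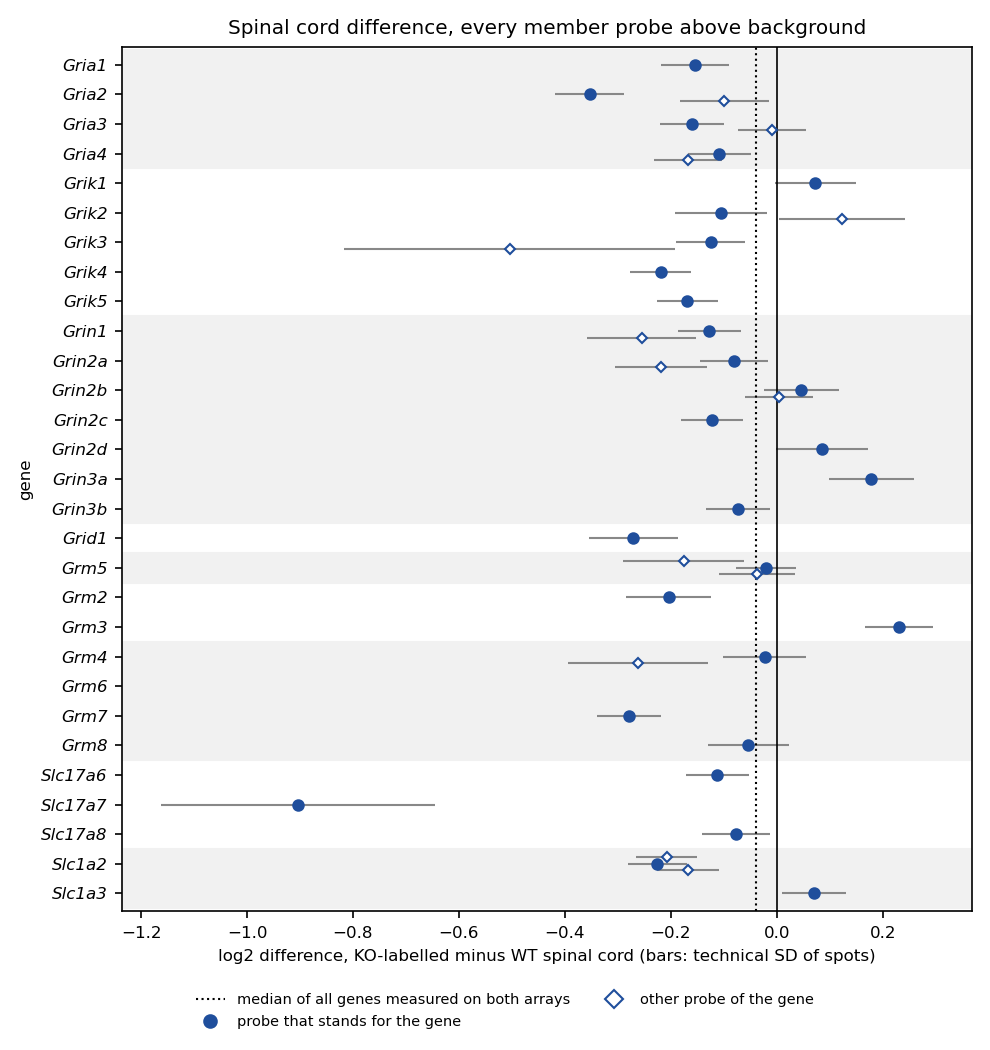
Log2 differences of the KO-labelled minus the WT spinal cord array are shown for every probe above background on both arrays, with bars of 1 technical SD, which covers spots and not mice. Filled circles stand for the gene and diamonds are its other probes; the 28 filled circles run from −0.90 (Slc17a7) to 0.23 (Grm3), and 22 of them lie left of 0, the side on which 58.7% of all genes also lie. With normexp background correction, 13 of the 28 had the opposite sign, and with flagged backgrounds replaced 2 had.

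Markers of other tissues differed between the same spinal cord arrays. All 5 skeletal muscle markers were higher in KO, with a median of 4.12 on the log2 scale, and their summed signal relative to the 75th percentile was 2.80 in WT and 48.1 in KO. For the 5 Schwann cell markers the sum was 46.0 in WT and 69.1 in KO, and for the 5 blood markers 227 and 350. The 9 neuron markers had a median difference of −0.05 and sums of 281 and 272. The 5 astrocyte markers were all below 0, with a median of −0.23 and sums of 66.1 and 54.3, beside Slc1a2 at −0.23 and Slc1a3 at 0.07. No defining marker of neurons or astrocytes was below background in the spinal cord. The part of any of these in the differences of the glutamate genes was not tested. Normexp background correction turned the sign of 13 genes, among them 9 whose difference exceeded 1 technical SD (Gria4, Grik4, Grik5, Grin1, Grin2c, Grin3a, Grm3, Slc17a6 and Slc1a2), and when flagged local backgrounds were replaced by the median of their array, the median of the 28 genes was −0.11 again.

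In the duodenum, the representing probes of 4 genes could be compared between WT and KO. Grm2 differed by −1.53 (technical SD 0.108), Grik5 by −0.28 (0.136), Grik4 by 0.05 (0.295) and Slc1a3 by 0.37 (0.123). Grm2 was therefore 2.89-fold lower in KO after normalization, although its unscaled signal was 75.6 in WT and 124 in KO, because the 75th percentile of the KO array was 4.75 times that of the WT array. The further Grm5 probe, which does not stand for its gene, differed by −2.51 (0.220), a larger drop than that of Grm2. Of the 11 genes whose representing probe was read on at least 1 duodenum array, 1 was at least 2-fold lower and none at least 2-fold higher. Of all 21429 such genes, 11.9% were at least 2-fold lower and 7.2% higher. The median difference of all genes measured on both arrays was −0.11.

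Grm2 kept its direction under both normexp background corrections and under quantile or median scaling, with values between −1.54 and −1.13. Scaling on the spiked-in control probes shifted the median of all genes to 2.89 and placed Grm2 at 1.47, which was lower than that median by the same amount as before: relative to the median of all genes, Grm2 was at −1.42 in both. Slc1a3 was at 0.48 relative to the median and Grik5 at −0.16. With normexp, Grik4 went from 0.05 to −1.22, Grik5 from −0.28 to −0.82 and Slc1a3 from 0.37 to −0.39, so of the 4 genes Grm2 and Grik5 kept their direction. A further 7 genes (Gria4, Grin1, Grin2d, Grm4, Grm5, Slc17a8 and Slc1a2) were above background in the KO duodenum and not in WT by their representing probes, but their KO values lay below the lowest value that counts as above background in WT, so no fold is given.

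Enteric markers differed little in sum between these arrays. The summed signal of the 6 enteric neuron markers relative to the 75th percentile was 1.47 in WT and 1.24 in KO, and that of the 3 enteric glia markers was 0.324 and 0.522. Nos1, which defines inhibitory enteric motor neurons, was not above background on either array. The 5 blood markers summed to 1532 in WT and 88.4 in KO, with a median difference of −3.77 on the log2 scale, and the 5 pancreatic acinar markers to 6383 and 2281. Grm2 lies on chromosome 9, as does Ip6k2, with 69 protein-coding genes between them. The part of the marker differences or of this position in the difference of Grm2 was not tested.

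**Figure D3:**
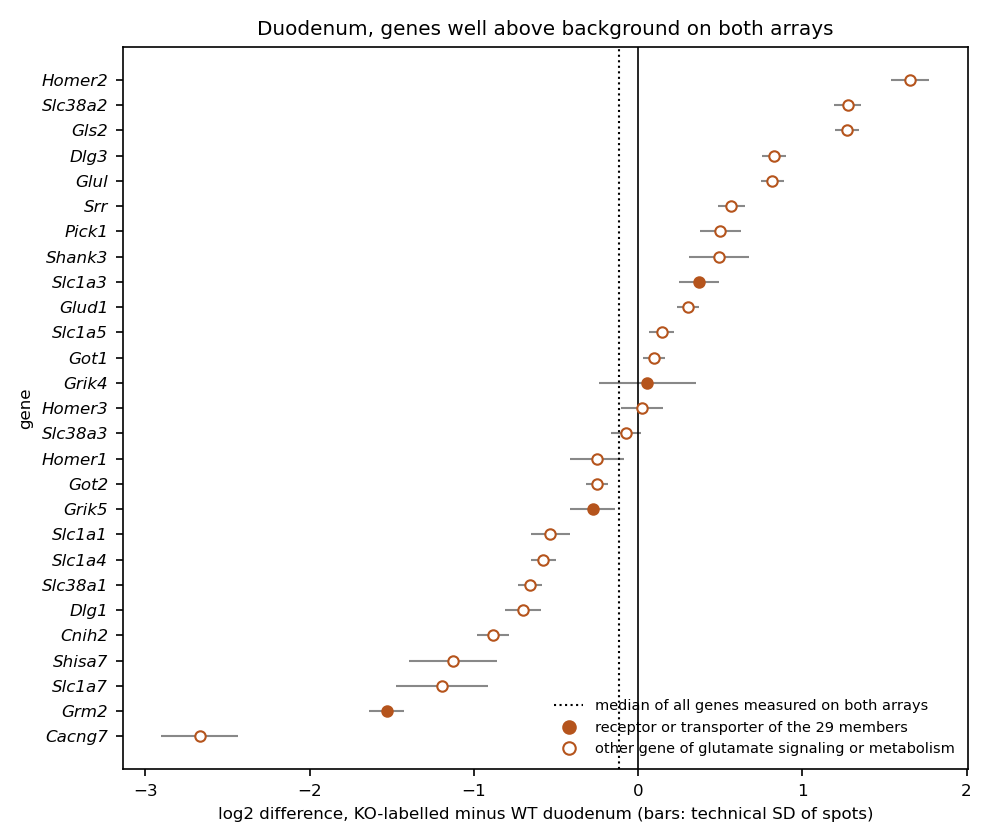
Log2 differences of the KO-labelled minus the WT duodenum array, each array minus its 75th percentile, for genes well above background on both, with bars of 1 technical SD of spots. Of the 4 filled circles (representing probes of receptors and transporters of the list), Grm2 lies at −1.53 and the others between −0.28 and 0.37; open circles are other genes of glutamate signaling and metabolism, some of which are not drawn, from Cacng7 at −2.67 to Homer2 at 1.66. Scaling on spiked-in controls moves every point up by the same amount, after which all points lie above 0.

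Compared with the spinal cord, most of the genes were lower in the duodenum on both pairs of arrays. On the WT arrays, 24 of 28 were at least 2-fold lower, as measured or as a lower bound, against 23.1% of all 25218 genes read there. On the KO arrays, 26 of 28 were at least 2-fold lower, against 25.4% of 25720 genes. By the representing probes, Grm2 was the 1 gene at least 2-fold higher in the duodenum on either pair, as were 30.2% of all genes on the WT arrays and 30.3% on the KO arrays. The median of all genes measured on both arrays was 0.63 for WT and 0.30 for KO.

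A bound was used for 23 genes on the WT arrays and 16 on the KO arrays, because the duodenum probe was not above background. On the KO arrays, where dimmer duodenum probes passed background, the log2 difference was −8.02 for Grin1 (technical SD 0.090), which was 259-fold lower, and −7.68 for Gria4 (0.087), which was 205-fold lower. In WT these were at least 73.1-fold and at least 80.0-fold lower. Slc1a2 was 159-fold lower in KO and at least 133-fold lower in WT. Slc17a6 was at least 368-fold lower in KO and at least 84.4-fold lower in WT, and Grm5 was 83.3-fold lower in KO and at least 37.9-fold lower in WT by its representing probe. The further Grm5 probe went against this, with a log2 difference of 2.32 in WT, where it was higher in the duodenum, and −0.01 in KO. The sizes also depend on the background correction. With normexp, Grin1 was at −4.68 and Gria4 at −4.63 on the log2 scale in KO, and their WT bounds became −2.97 and −2.91. The differences between the WT and KO bounds follow the floors of the duodenum arrays, −3.99 in WT and −6.22 in KO on the normalized log2 scale, and do not compare the genotypes.

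The genes measured on all 4 arrays were nearer to each other. Grik4 was lower in the duodenum by 36.1-fold in WT and 29.9-fold in KO, Grik5 by 5.99-fold and 6.45-fold, and Slc1a3 by 6.98-fold and 5.67-fold. Grm2 was higher by 6.34-fold in WT and 2.53-fold in KO after scaling on the 75th percentile, which is 2.04 above the median of all genes on the log2 scale in WT and 1.04 above it in KO. Its unscaled signals were lower in the duodenum, and scaling on spiked-in controls, which moved the median of all genes to −4.41 in WT and −1.57 in KO, put it at −2.38 in WT. The difference of Grm2 between the 2 tissue comparisons was not tested. At the low end, Grin2d and Grik2 were at least 1.82-fold and 1.94-fold lower in WT, under the 2-fold limit, and Slc17a7 was too dim in the spinal cord for a fold on either pair.

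**Figure D4:**
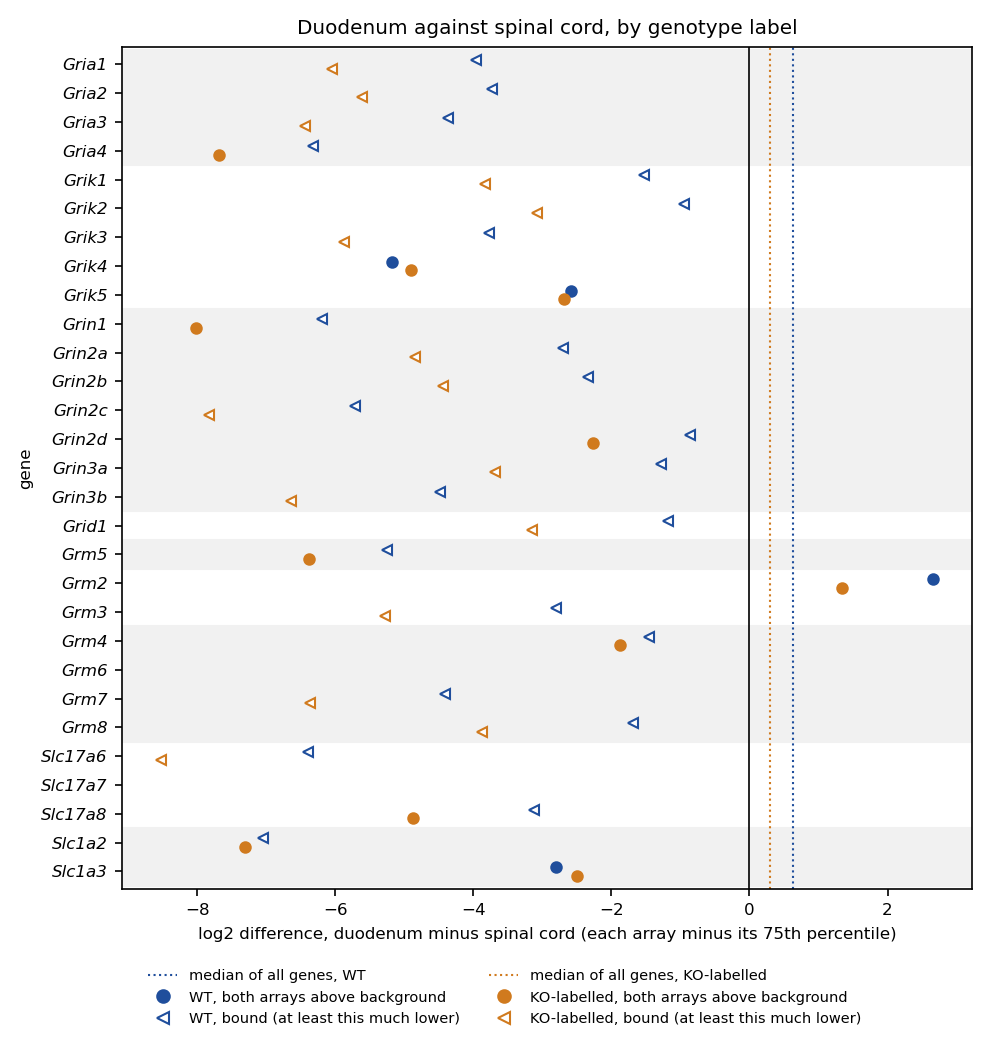
Log2 differences of the duodenum minus the spinal cord array are shown for WT and for the arrays labelled KO, each array minus its 75th percentile; circles are genes above background on both arrays, open triangles are bounds (at least this much lower), and dotted lines are the medians of all genes. Grm2 lies right of both medians at 2.66 and 1.34, and every other plotted gene lies left of 0; only representing probes are drawn, scaling on spiked-in controls moves Grm2 left of 0 and Grin2d lies right of 0 on the KO arrays with normexp.

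Further genes that handle glutamate were taken from a list of 46, of which 45 were on the array. It covers 8 receptors and transporters outside the 29, 14 auxiliary subunits, 14 scaffold proteins and 10 metabolic genes. In the spinal cord all 45 were above background on both arrays, and 2 were at least 2-fold higher in KO and none at least 2-fold lower, against 2.28% and 0.865% of all genes. They were Slc7a11, the cystine/glutamate exchanger, at 1.09 (technical SD 0.259, signals 7.49 in WT and 17.1 in KO), and Slc1a5, a neutral amino acid transporter, at 1.03 (0.071, signals 200 and 438). The next highest was the scaffold Shank3 at 0.22. Low values included the AMPA auxiliary subunit Shisa9 at −0.47 and the scaffold Shank2 at −0.42. The median was −0.11.

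In the duodenum detection of these genes differed by class. All 10 metabolic genes, among them the glutaminase Gls2, glutamine synthetase Glul and glutamate dehydrogenase Glud1, were above background on all 4 arrays. Of the auxiliary subunits, which tune gating and traffic of AMPA and kainate receptors, 14 of 14 were above background in the spinal cord and 3 in WT and 4 in KO duodenum. Of the scaffolds, 13 of 13 measured were in the spinal cord, and 7 and 10 in WT and KO duodenum.

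Between the duodenum arrays, 25 of these genes were measured on both, 3 were at least 2-fold higher and 4 at least 2-fold lower in KO, out of 29 read on at least 1 array, against 7.2% and 11.9% of all genes. The highest were the scaffold Homer2 at 1.66 (technical SD 0.115, signals 22.6 and 339 in WT and KO), the glutamine transporter Slc38a2 at 1.28 (0.084) and the glutaminase Gls2 at 1.27 (0.070). Low values included the AMPA auxiliary subunit Cacng7 at −2.67 (0.235, signals 22.2 and 16.6) and the transporter Slc1a7 at −1.19 (0.280, signals 10.9 and 22.6). Against the spinal cord and scaled on the 75th percentile, 4 of 45 genes of the list were at least 2-fold higher in the duodenum and 24 lower in WT, against 30.2% and 23.1% of all genes. In KO, 5 were higher and 28 lower, against 30.3% and 25.4%.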

How the data were processed

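Total RNA was labelled with Cy3 and hybridized to 1-color Agilent arrays. Per the labels, Agilent Feature Extraction 11.5.1.1 was used. The authors deposited its output, where spot intensity (the processed signal) is background-subtracted and detrended. They also deposited normalized log2 values, an alternative here. For the 43 probes, where well above background on the spinal cord arrays, these matched quantile-normalized scanner values to 0.0021 or less. This check did not cover the duodenum arrays. Control spots and outlier-flagged spots were left out and spots of 1 probe averaged. Accessions were named through RefSeq (25868 of 26391 probes with an NM accession matched). Log2 of the signal was taken and the 75th percentile of each array subtracted. A gene was represented by the probe whose mean of the 4 arrays was highest. Where 1 array was not well above background, the bound used the array's lowest value that still passed background, or the probe's own value if higher. The technical SD was the median over the 50 repeated probes nearest in brightness. The number of arrays limits the precision.

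Values of all 4 arrays are given for the probe with the highest spinal cord signal in each class, for genes above background in both duodena and for genes that differed by 1 or more on the log2 scale or had probes of opposite sign. Others named were chosen after their values were seen. For the further glutamate genes, the 3 largest differences in each direction were named, except for some genes that are not reported here. The genes and lists were chosen with earlier results of these data known. Alternatives were normexp background correction (offset 50, limma 3.58.1 in R 4.3.3), also with flagged backgrounds replaced, quantile normalization, median centering, spiked-in controls, probe means, other background filters and a 1.5-fold limit. Motifs were searched in Python 3.11.15.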

Additional observations from a re-analysis of the deposited data

Results flagged for a closer look

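For 2 genes, a probe that does not stand for the gene was well above background in a duodenum array where the representing probe was not. A second Grin2a probe had a signal of 5.10 in the KO duodenum and 0.93 in the WT duodenum. A further Grm5 probe had a signal of 24.8 in the WT duodenum, with 20.7 in the KO duodenum and 66.2 and 62.9 in WT and KO spinal cord, so it was above background on all 4 arrays while the representing Grm5 probe read 3.19 in the WT duodenum. The further Grm5 probe differed by −2.51 (technical SD 0.220) between KO and WT duodenum. Of the 4 genes measured on all arrays by their representing probes, Grik4 alone had KO minus WT differences of opposite sign, −0.22 in the spinal cord and 0.05 in the duodenum, the second smaller than its technical SD of 0.295, and the difference between tissues was not tested. With normexp both signs turned, to 0.034 and −1.22, and Slc1a3 was at 0.33 in the spinal cord and −0.39 in the duodenum. With flagged backgrounds replaced, Grik4 was at −0.20 and −1.18 and Slc1a3 at 0.15 and −0.39 in that order.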

How the results depend on the processing

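No paired analysis was possible because WT and KO form a single pair in either tissue, and with 1 array a group no replicate was left out. Differences within the duodenum rest on signals of 6.26 to 169, and most of the receptor and transporter probes were not above background there, which limits what can be read.

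Between the duodenum arrays, the count of genes at least 2-fold lower was 1 and became 2 with normexp, with flagged backgrounds replaced and with probe means, 0 with spiked-in controls and 15 without a background filter. The count higher was 0 and became 11 with spiked-in controls. Over all genes, the count lower went from 2550 to 3061 with normexp and 3070 with backgrounds replaced. It became 2667 with probe means and 18 with spiked-in controls, where 20605 genes were higher, against 1543 before. For the filter and fold settings no count over all genes is given. The median was −0.11 and became −0.97 with normexp, −0.96 with backgrounds replaced, −0.28 with probe means and 2.89 with spiked-in controls. Slc1a3 turned to −0.39 with normexp and with backgrounds replaced, and Grik4, first at 0.05 and under 1 technical SD, to −1.22 and −1.18.

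Between the spinal cord arrays, the count lower was 0 and became 4 with normexp, 1 with spiked-in controls and 1 at the 1.5-fold limit. Over all genes, the count lower went from 218 to 9653 with normexp and 353 with spiked-in controls. The median of the 28 genes went from −0.11 to −0.24 with normexp and −0.28 with spiked-in controls. With normexp, 13 signs turned, and those past 1 technical SD were Gria4 (0.15), Grik4 (0.034), Grik5 (0.036), Grin1 (0.18), Grin2c (0.17), Grin3a (−0.75), Grm3 (−0.21), Slc17a6 (0.24) and Slc1a2 (0.10). With flagged backgrounds replaced, 2 signs turned, neither past 1 technical SD (Grin2d and Grm5). The highest local background of the WT spinal cord array was 15708, and 27 after replacement, against 47 and 27 for the KO array. With probe means Grik2 was at 0.0093 and Slc17a8 at 0.081, and the second Slc17a8 probe was not above background.

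Between the tissues in WT, the count lower was 24 and became 12 with normexp and with backgrounds replaced, and 3 where both arrays had to be above background. The count higher was 1 and became 0 with spiked-in controls and 2 without a filter. Over all genes, the count lower went from 5815 to 2867 with normexp and 3341 with backgrounds replaced. The count of all genes higher went from 7617 to 860 with spiked-in controls. The median of −2.69 became −1.45 with normexp, −1.63 with backgrounds replaced, −2.47 with median centering, −2.58 with probe means and −7.73 with spiked-in controls. In KO, the count lower of 26 became 10 where both arrays had to be above background. The count higher of 1 became 0 with spiked-in controls, where that of all genes went from 7796 to 2451, and 2 without a filter. The median of −4.87 became −2.26 with normexp and with backgrounds replaced, −4.55 with quantile normalization and the deposited table, −4.60 with median centering, −3.48 with probe means and −6.74 with spiked-in controls. Grin2d turned to 0.10 in KO with normexp and with backgrounds replaced. A spike-in shift, a stricter filter and fewer probes act by construction, and the cause of the normexp values was not tested further. Over single genes, 23 of 530 values under the alternatives had the opposite sign, 15 of them for differences that had exceeded the spread used.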

Other observations

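The ratio of the KO to the WT duodenum signal had a median of 4.38 over genes that passed background on both. Grik4 (4.93) and Grik5 (3.92) lay near this median, and Slc1a3 (6.13) lay above it. The ratio was 1.64 for Grm2, 0.746 for Cacng7, 2.07 for Slc1a7 and 0.835 for the Grm5 probe above background on all 4 arrays. Nothing was tested on these genes, which were picked after their values were seen.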
